A study of Mus musculus with 6 samples.

Results

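The genes described are those of the colony-stimulating factors, Csf1, Csf2 and Csf3, and that of the Csf1 receptor, Csf1r. They are 4 of the 9574 named genes with a value on all 6 arrays, and were chosen by symbol: every probe that the platform annotation assigns to 1 of them was taken. The cells were RAW 264.7, a mouse macrophage line grown from a tumour raised with Abelson leukaemia virus (the labels also write RAW 264.4). Treated cells had received bacterial lipopolysaccharide (LPS) at 100 ng/ml together with LPS-binding protein (LBP) at 100 pM, and were compared with untreated cells of the same line. Both were cultured for 4 h before total RNA was taken. Each array carried treated and untreated RNA in different dyes, with treated RNA in Cy5 on 3 arrays and in Cy3 on the other 3, and the labels number sets 1 to 3 in each orientation. A single transformed line stands for macrophages here. Separate cultures for the sets are not named in the labels, and each p-value therefore covers only how far these samples scatter, possibly for technical reasons.

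Colony-stimulating factors are secreted proteins that make blood progenitors survive, divide and mature into granulocytes and macrophages. Csf1 (M-CSF) sustains macrophages through Csf1r, a receptor tyrosine kinase. Csf2 (GM-CSF) signals through an α chain and a β chain shared with the interleukin-3 and interleukin-5 receptors, and Csf3 (G-CSF) through Csf3r. The receptors of Csf2 and Csf3 carry Janus kinases that activate STAT factors. Macrophages that sense LPS through the Toll-like receptor TLR4 are known sources of these factors.

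After LPS and LBP, Csf3 RNA was 10.5-fold higher in treated than in untreated cells, and Csf2 RNA was 1.46-fold higher. Csf1r RNA was lower, at 0.815 of the untreated level. In such bulk samples less RNA per cell and fewer cells with the RNA cannot be told apart. Csf1 was 1.17-fold higher and did not pass the test. Of the 4 genes, 2 therefore rose, 1 fell and 1 was not called, at a Benjamini-Hochberg adjusted p below 0.05 in limma over 11364 features. Over all features 14.0% were called higher and 15.0% lower, 29.0% in all. The deposited values are ratios, so they say how far each gene changed but not which of the 4 had the most RNA. Values given per array are log2 ratios, treated over untreated, and those per gene are means ± SD of n = 3 sets, each set being the mean of its 2 arrays.

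**Figure D1:**
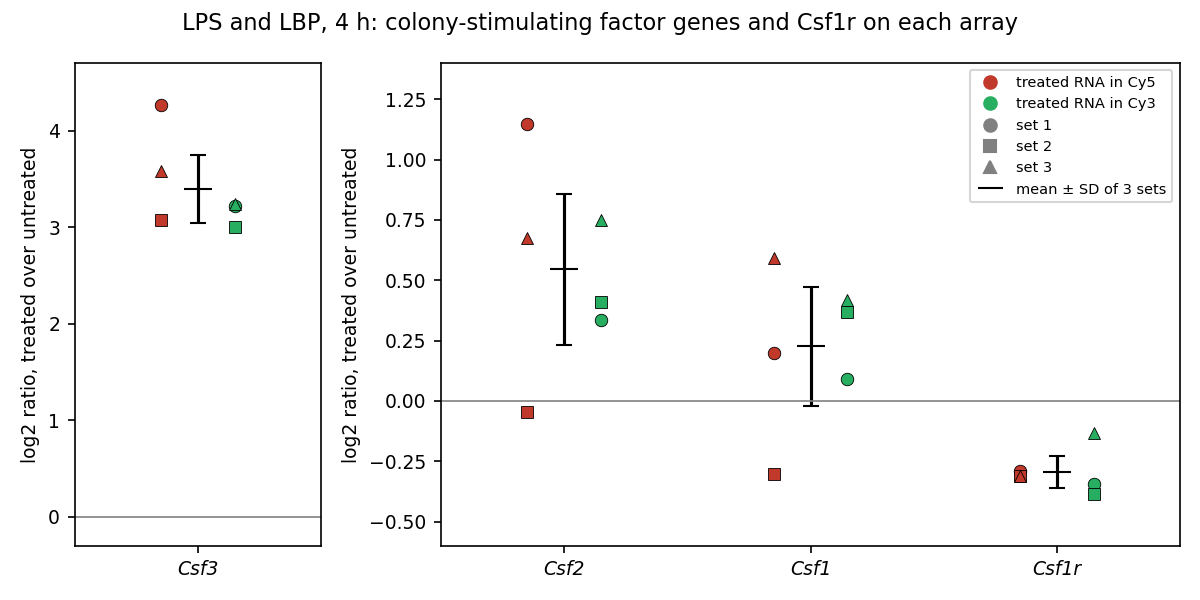
Log2 ratio of treated over untreated RNA for each gene on each of the 6 arrays (red, treated RNA in Cy5; green, treated RNA in Cy3; symbols mark the set), with the mean ± SD of 3 sets as a bar. The left panel has its own scale: Csf3 lay above 3 on all 6 arrays, Csf1r below 0 on all 6, and Csf2 and Csf1 each dipped below 0 on the set 2 array with treated RNA in Cy5.

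Csf3, the gene of the granulocyte growth factor, had 2 probes, both annotated to the transcript NM_009971. The first, probe 6317, stood at 4.26, 3.07 and 3.58 in sets 1, 2 and 3 with treated RNA in Cy5, and at 3.21, 3.01 and 3.24 with treated RNA in Cy3. All 6 arrays were thus above 3, and the lowest lay far above the highest value of any of the other 3 genes. The mean was 3.40 ± 0.35 (limma adjusted p = 9.88e-07, 95% interval 3.13 to 3.66), the 20th largest rise among the 9574 named genes.

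The second Csf3 probe, 18418, went another way. It had exactly 0 on 2 arrays, which was taken as not measured, and was left out of the gene's value. As deposited, that is before signs were turned, it read -2.90 and -2.05 in sets 1 and 3 with treated RNA in Cy5, and -2.29 and -1.45 in sets 1 and 2 with treated RNA in Cy3. The signal was thus higher in Cy3 than in Cy5 on all 4 measured arrays, whichever dye held the treated RNA. In a limma fit of treatment and dye over single probes, chosen after these values were seen, this probe had a treatment effect of -0.30 ± 0.20 (SE, adjusted p = 0.423) and a dye effect of -2.17 ± 0.20 (SE, adjusted p = 0.0262). In the same fit 5.64% of 14694 probes were called for a dye effect. The first Csf3 probe had a treatment effect of 3.40 ± 0.14 (SE, adjusted p = 1.14e-05) and a dye effect of 0.24 ± 0.14 (SE, adjusted p = 0.289).

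One sign on every measured array was common, and its size here was not. Of the 14694 probes with values on at least 2 arrays of each orientation, 942 were below 0 and 1249 above 0 as deposited on every measured array. Of these probes 29 were at or below -1.45, the weakest value of the second Csf3 probe, on every measured array, and 0 lay as far above 0. The gap between the 2 Csf3 probes was 3.70 on the log2 scale, against a median gap of 0.0869 over 2211 genes with several such probes, and was the 4th largest. Why the probes differ was not tested, and the files used here give neither probe sequences nor intensities. Csf3's rise therefore rests on 1 probe.

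**Figure D2:**
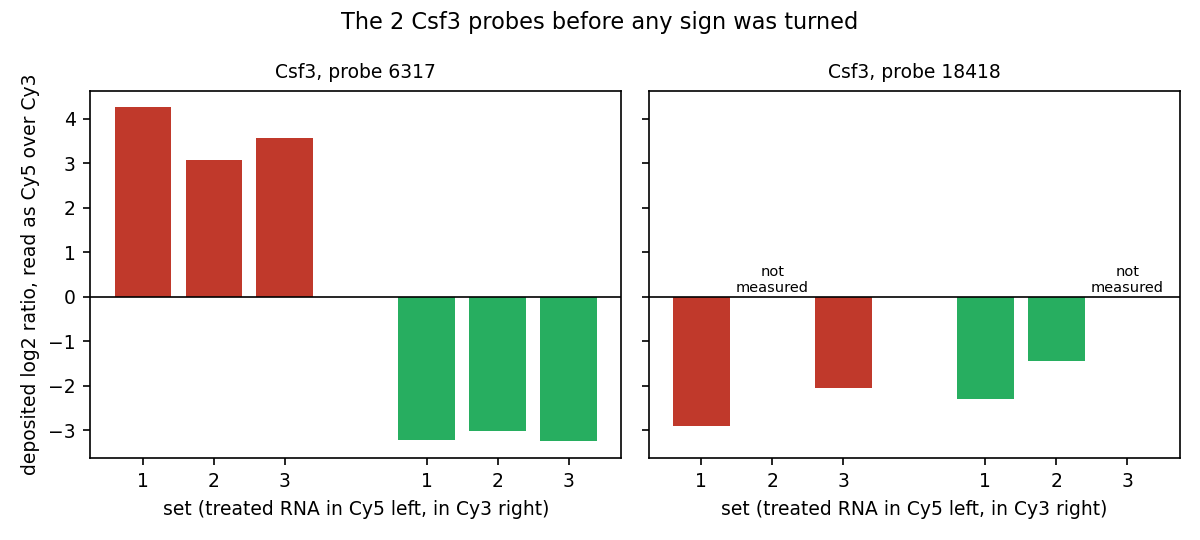
Deposited log2 ratios, read as Cy5 over Cy3, of the 2 Csf3 probes on each array, with no sign turned. Probe 6317 changes sign with the dye of the treated RNA (4.26 to 3.07 against -3.24 to -3.01), whereas probe 18418 is negative on all 4 arrays on which it has a value.

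Csf2, the gene of the granulocyte-macrophage growth factor, had 1 probe. It stood at 1.15, -0.044 and 0.67 in sets 1, 2 and 3 with treated RNA in Cy5, and at 0.33, 0.41 and 0.75 with treated RNA in Cy3. It was above 0 on 5 of 6 arrays, and the exception was the set 2 array with treated RNA in Cy5. The mean was 0.54 ± 0.31 (limma adjusted p = 0.00640, 95% interval 0.30 to 0.79), and its SD lay at the 99.1th percentile of all features. The call was lost without set 3 (0.46, adjusted p = 0.0665), on the arrays with treated RNA in Cy5 alone (0.59, adjusted p = 0.142) and where zeros counted as measurements (adjusted p = 0.131).

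Csf1, the gene of the macrophage growth factor, also had 1 probe. With treated RNA in Cy5 it was at 0.20, -0.30 and 0.59 in sets 1, 2 and 3, and with treated RNA in Cy3 at 0.091, 0.37 and 0.42. As for Csf2, 5 of 6 arrays were above 0 and the set 2 array with treated RNA in Cy5 was the lowest. The mean was 0.23 ± 0.25 (limma adjusted p = 0.0920, 95% interval before adjustment 0.026 to 0.43). Over the 5 arrays other than the set 2 array with treated RNA in Cy5, a setting added after its values were seen, Csf1 was at 0.33 (adjusted p = 0.0217). Without the whole of set 2 it passed as well (0.32, limma adjusted p = 2.92e-04). Sets 1 and 3, left in that setting, stood at 0.14 and 0.50. The SE of Csf1 there was 0.074, close to 0.070 for Csf2, 0.073 for Csf3 and 0.071 for Csf1r. With so few sets limma draws each variance toward that of all features. Adjusted p-values without set 2, here and below, therefore say little about the scatter of a single gene. Leaving out set 3 gave 0.088 (adjusted p = 0.280).

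Promoter windows from RefSeq (GRCm38.p6) are shown for 2 of the 4 genes, Csf2 and Csf1. They set a ligand gene that rose beside the one that was not called. Csf1r, a receptor gene, was left out of this choice, and no Csf3 window was available. Each window runs from 250 bases before to 50 bases after the outermost annotated start, which for Csf2 belongs to an entry with a predicted as well as a curated transcript. Capitals mark matches, on either strand, to 6 motifs: the CK-1 core GAGATTCC known from colony-stimulating factor promoters, AP-1 (TGANTCA), C/EBP (TTNNGNAA), the TATA box (letters TATAAA), the interferon-stimulated response element (GAAANNGAA) and the NF-κB consensus. No 2 of the matches overlapped. The windows lie at chr11:54249850-54250149 (Csf2) and chr3:107760420-107760719 (Csf1), both on the minus strand, and are written 5′ to 3′ along the gene.
Csf2: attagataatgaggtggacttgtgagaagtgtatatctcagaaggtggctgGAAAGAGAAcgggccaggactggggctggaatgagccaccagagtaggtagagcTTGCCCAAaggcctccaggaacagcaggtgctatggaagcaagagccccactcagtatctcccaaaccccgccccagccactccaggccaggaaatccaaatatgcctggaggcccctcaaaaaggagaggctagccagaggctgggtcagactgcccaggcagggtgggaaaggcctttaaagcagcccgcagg
Csf1: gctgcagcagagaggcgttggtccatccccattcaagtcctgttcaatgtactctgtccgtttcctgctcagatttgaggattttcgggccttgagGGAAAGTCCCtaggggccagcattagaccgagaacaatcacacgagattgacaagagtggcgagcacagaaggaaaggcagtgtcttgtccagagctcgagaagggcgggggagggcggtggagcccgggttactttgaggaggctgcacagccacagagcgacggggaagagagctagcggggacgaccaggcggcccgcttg

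The Csf2 window held 1 interferon-stimulated response element match, from 199 bases before the start, and 1 C/EBP match, from 145 bases before it. The Csf1 window held 1 NF-κB match, from 154 bases before the start. Among 32851 RefSeq windows of this length, 8.56% held the first motif, 40.7% the C/EBP motif and 8.46% the NF-κB consensus. The other motifs, held by 0.904% (CK-1 core), 7.81% (AP-1) and 13.6% (TATA) of windows, had no match in these letters. Within these windows the gene with the smaller, uncalled change thus held the NF-κB match, and a match is a description of the letters alone. Sequence around any start other than the outermost was not searched. The windows therefore do not say that either gene lacks a motif there.

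The set 2 array with treated RNA in Cy5 had a median correlation of 0.611 with the other 5 arrays over all features, the lowest of the 6, which otherwise ran from 0.655 to 0.775. Whether this array's spread accounts for its values of Csf1 and Csf2 was not tested. Csf3 was at 3.07 on it, its second lowest value, and Csf1r at -0.31, within the range of the other arrays.

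Csf1r, the gene of the Csf1 receptor, fell, unlike the other 3. Its single probe stood at -0.29, -0.31 and -0.31 in sets 1, 2 and 3 with treated RNA in Cy5, and at -0.35, -0.38 and -0.13 with treated RNA in Cy3. All 6 arrays were below 0. The mean was -0.30 ± 0.067 (limma adjusted p = 0.00241, 95% interval -0.40 to -0.19), a loss of 18.5% of the untreated level. The fall missed the threshold on the arrays with treated RNA in Cy3 alone (-0.29, adjusted p = 0.0503). A probe of the related pseudogene Csf1r-ps, named after its values were seen, ran from -0.16 to 0.054 and was not called (-0.031 ± 0.063, adjusted p = 0.674). If transcripts of Csf1r and Csf1r-ps bind to both probes, the array cannot separate them.

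None of the 4 genes had a called dye effect in the set-wise limma test, which left out the second Csf3 probe. That test called 0% of features after adjustment, so it cannot tell the 4 genes from others. Before adjustment 2630 of the 11364 features had a p below 0.05 in it, 0 of them among the 4 genes. With only 4 genes, that count does not tell them from other features either. The order of the changes was Csf3, Csf2, Csf1 and Csf1r in all 3 sets. Csf3 exceeded Csf2 by 2.85 ± 0.15 (3.00, 2.85 and 2.70 in sets 1, 2 and 3). Csf2 exceeded Csf1 by 0.32 ± 0.24 (0.59, 0.15 and 0.21), a mean little larger than its spread. Csf2 lay above Csf1 on each of the 6 arrays, although the ranges of the 2 genes over the arrays overlapped. Csf1 exceeded Csf1r by 0.52 ± 0.18 (0.46, 0.38 and 0.73), and on each of the 6 arrays Csf1 lay above Csf1r. With 3 sets, an exact two-sided sign-flip permutation test of such a difference cannot go below p = 0.25, the value each of the 6 pairs gave.

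By the root mean square difference over the 6 arrays, the genes most like Csf3 among 9574 were Cd40, a co-stimulatory receptor gene (0.23; change 3.48 ± 0.39), Lynx1, a modulator of acetylcholine receptors (0.30; change 3.50 ± 0.22), and Cmpk2, a mitochondrial nucleotide kinase gene (0.38; change 3.66 ± 0.34). Those most like Csf2 were Tex48, Shox2 and Plek2, at 0.22 to 0.23, with changes from 0.48 to 0.63. Csf3 and Csf2 had 0 genes within 0.2. Csf1 had 50, the nearest being Hsd17b7, Padi2 and Asb1 (0.12 to 0.13), and Csf1r had 863, led by Pmaip1, Nasp and Mrpl43 (0.048 to 0.057). Many genes thus lay near the small change of Csf1r. The measure follows the size and scatter of a change as well as its pattern over the arrays.

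None of the measured neighbours of Csf3 or Csf2 was called higher. Of the 18 nearest measured genes, 3 on each side of Csf1, Csf2 and Csf3 in RefSeq order, 0 rose, 2 fell and 16 were not called, against 14.0% called higher and 15.0% lower over all features. Most were not adjacent: 0 to 20 RefSeq genes, measured or not, lay between, and 5 to 17 for the neighbours of Csf2 other than Il3. The nearest measured genes on the sides of Csf3 were Psmd3, a proteasome subunit gene (0.11 ± 0.050, adjusted p = 0.103), and Med24, a Mediator subunit gene (0.029 ± 0.0086, adjusted p = 0.665). The nearest measured gene on the other side of Csf2 from P4ha2 is Il3, which encodes the blood cell growth factor interleukin-3. It was at -0.0078 ± 0.066 (adjusted p = 0.924), and on the arrays with treated RNA in Cy3 alone at 0.16 (adjusted p = 0.170). The neighbours that fell were Msl1 (-0.62 ± 0.50, adjusted p = 0.0228), beyond Med24 from Csf3, and Gstm6 (-0.20 ± 0.069, adjusted p = 0.0153), a glutathione transferase gene near Csf1. Both calls were lost with treated RNA in Cy3 alone (Msl1 adjusted p = 0.100, Gstm6 adjusted p = 0.566) and in 3 or 4 other settings. Without set 1, Msl1 was at -0.33 (adjusted p = 0.00218).

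**Figure D3:**
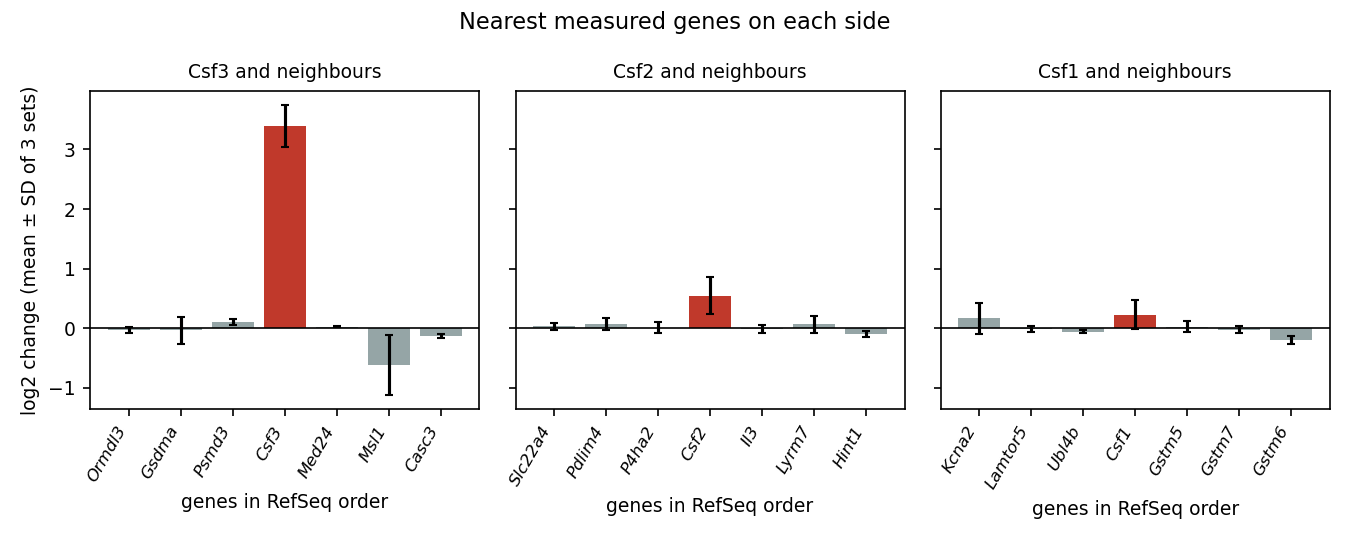
Log2 change (mean ± SD of 3 sets) of Csf3, Csf2 and Csf1 in red and of the 3 nearest measured genes on each side in grey, in RefSeq order, leaving out genes without a value and not to distance. No neighbour was called higher, and Msl1 (-0.62) and Gstm6 (-0.20) were the 2 that fell. Most neighbours were not adjacent, and Csf1 itself was not called.

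Receptors and sister growth factors of the 4 genes were called about as often as other features. All 17 listed ligands and receptors of the same families were measured, of which 3 rose, 2 fell and 12 were not called (median 0.070, against 0.00079 over all features, of which 14.0% rose and 15.0% fell). Over the alternatives 2 to 3 rose and 0 to 2 fell. Csf2ra, the α chain of the Csf2 receptor, rose by 0.31 ± 0.072 (adjusted p = 0.00199), a call lost with treated RNA in Cy3 alone (0.24, adjusted p = 0.0761). Csf3r, the Csf3 receptor gene, was at -0.19 ± 0.14 (adjusted p = 0.0519), and at -0.27 (adjusted p = 0.00188) without set 2. Pdgfb, a platelet-derived growth factor gene whose receptors are relatives of Csf1r, had the largest change of the list at 0.91 ± 0.16. Its partner Pdgfa was at -0.22 ± 0.12 (adjusted p = 0.0232), a call that was lost on each orientation alone (adjusted p = 0.148 with treated RNA in Cy5 and 0.0636 in Cy3), without set 3 (0.0809), with scaled arrays (0.0556) and with zeros kept (0.132). Flt3l, the ligand gene of the receptor kinase Flt3, was at 0.20 ± 0.089 (adjusted p = 0.0205) but had an adjusted p of 0.293 when the 6 arrays entered singly, and stood at -0.037 on the arrays with treated RNA in Cy5 alone. Pdgfra was at 0.12 ± 0.12 and was not called.

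Signal carriers of Csf1r moved both ways. Of 27 listed, 16 were measured on all 6 arrays, and of these 3 rose, 5 fell and 8 were not called (median 0.0043), beside 14.0% higher and 15.0% lower over all features. The falls numbered 3 to 6 and the rises 2 to 4 over the alternatives. Adam17, the membrane protease known to shed Csf1r from the cell surface, rose by 0.71 ± 0.11 (adjusted p = 6.22e-05). Inpp5d, the lipid phosphatase SHIP1 that dampens PI3-kinase signals, fell by 0.58 ± 0.043 (adjusted p = 6.18e-05). The docking protein genes split, with Dok2 at 0.41 ± 0.052 (adjusted p = 3.82e-04) and Dok1 at -0.52 ± 0.33 (adjusted p = 0.0102). The Dok1 call was lost with treated RNA in Cy3 alone (adjusted p = 0.0741) and with zeros kept (adjusted p = 0.157), and without set 1 Dok1 was at -0.33 (adjusted p = 0.00224). Pik3ca (-0.13 ± 0.11), a PI3-kinase subunit gene, and Syk (0.12 ± 0.16), a tyrosine kinase gene, were not called. Pik3ca passed with treated RNA in Cy3 alone (-0.25, adjusted p = 0.0463) and without set 2 (-0.19, adjusted p = 0.0366).

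JAK and STAT genes used by the Csf2 and Csf3 receptors, with their feedback inhibitors and survival targets, rose in 12 of 15 measured cases of 16 listed, fell in 0 and were not called in 3 (median 0.45). Over all features 1586 of 11364 rose. Pim1, a survival kinase gene that STAT factors turn on, rose by 2.44 ± 0.10 (adjusted p = 1.63e-07), and Socs1, a suppressor of cytokine signals, by 1.25 ± 0.20 (adjusted p = 1.97e-05). Stat3, the main STAT of the Csf3 receptor, rose by 0.89 ± 0.075, and Jak2, the kinase of the Csf2 receptor, by 0.87 ± 0.044. Stat5b, used by the Csf2 receptor, was at -0.19 ± 0.15 and Socs2 at 0.17 ± 0.12, and neither was called. Without set 2 both passed, Stat5b at -0.27 (adjusted p = 0.00155) and Socs2 at 0.23 (adjusted p = 0.00807). Stat5b also passed with treated RNA in Cy5 alone (-0.39, adjusted p = 0.0197), and Socs2 with a random replicate block (adjusted p = 0.0379). Interferons and several interleukins are also known to act through these genes.

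**Figure D4:**
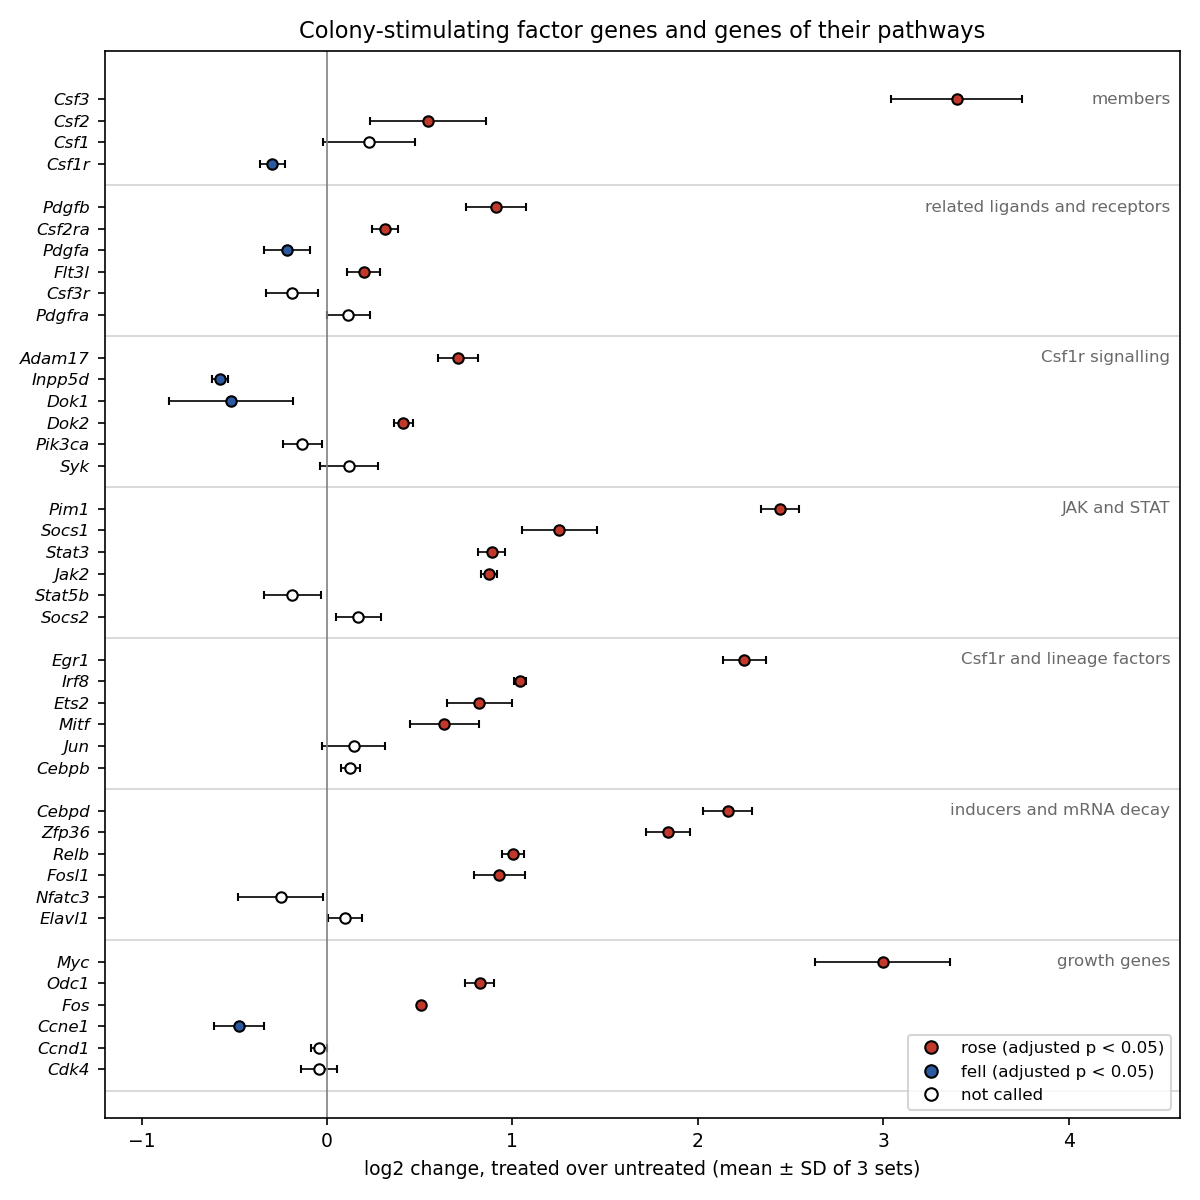
Log2 change, treated over untreated (mean ± SD of 3 sets), of Csf3, Csf2, Csf1 and Csf1r and of up to 4 called and 2 uncalled genes from each pathway list; red rose, blue fell, open circles were not called. Csf3 (3.40) has the largest change shown, followed by Myc (3.00), Pim1 (2.44), Egr1 (2.25) and Cebpd (2.16).

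Of 15 transcription factors known from the Csf1r gene or the macrophage lineage, 13 were measured, and 5 rose, 2 fell and 6 were not called (median 0.13), beside 14.0% higher and 15.0% lower over all features. Egr1, an early response factor, rose by 2.25 ± 0.12, Irf8, a monocyte lineage factor, by 1.04 ± 0.032, and Ets2, a target of kinase signals, by 0.82 ± 0.18. Mitf rose by 0.63 ± 0.19, a call lost with treated RNA in Cy5 alone (adjusted p = 0.0802). Jun (0.14 ± 0.17) and Cebpb (0.13 ± 0.052) were not called, though Jun stood at -0.18 with treated RNA in Cy5 and at 0.46 with it in Cy3 (adjusted p = 0.0423), and passed without set 2 (0.24, adjusted p = 0.00750). Cebpb passed with a random replicate block (adjusted p = 0.0174) and among features with the same sign in both orientations of every set (adjusted p = 0.0228). In the list of inducers and mRNA decay factors of Csf2 and Csf3, 14 of 19 genes were measured, and 7 rose, 2 fell and 5 were not called (median 0.27), beside the same 14.0% and 15.0%. Cebpd, whose protein is known to act on promoters of acute response genes, rose by 2.16 ± 0.13, and Zfp36, tristetraprolin, which destabilises the RNAs of Csf2 and Csf3, by 1.84 ± 0.12. The NF-κB subunit gene Relb rose by 1.00 ± 0.061 and the AP-1 gene Fosl1 by 0.93 ± 0.14. Nfatc3 (-0.25 ± 0.23) and the RNA-stabilising factor gene Elavl1 (0.096 ± 0.092) were not called. Nfatc3 passed with a fixed replicate block (adjusted p = 0.0284), a random one (adjusted p = 0.0247), among features with the same sign in both orientations of every set (adjusted p = 0.0312), and without set 2 (-0.31, adjusted p = 7.07e-04).

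All 9 listed growth genes of Csf1-stimulated macrophages were measured, of which 5 rose, 2 fell and 2 were not called (median 0.20), beside 14.0% higher and 15.0% lower over all features. The rises numbered 3 to 5 and the falls 0 to 2 over the alternatives. Myc rose by 3.00 ± 0.36, Odc1, the polyamine synthesis gene, by 0.82 ± 0.077, and Fos by 0.51 ± 0.017. Cyclin E1 (Ccne1) was at -0.47 ± 0.14 (adjusted p = 7.64e-04), but at -0.84 with treated RNA in Cy5 and -0.11 with it in Cy3, and was not called when the 6 arrays entered singly (adjusted p = 0.123). Ccnd1, the cyclin D1 gene that Csf1 is known to raise, was at -0.045 ± 0.043 and Cdk4, its kinase partner, at -0.042 ± 0.098, and neither was called.

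Ratios give no level, so the labelled cell type could be set against its markers only by their changes. Of 10 macrophage markers 9 were measured, of which 5 rose and 4 were not called, with a median of 0.75. Adgre1, an adhesion receptor gene, rose by 1.10 ± 0.13, whereas the uncalled ones lay between 0.027 (Marco) and 0.091 (Mrc1). Markers of granulocytes rose in 1 of 8 measured cases, those of fibroblasts in 0 of 6 and those of lymphocytes in 1 of 5, with medians from 0.054 to 0.078. Over all features 14.0% were called higher and 15.0% lower.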

How the data were processed

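The authors deposited 1 log2 ratio per probe and array for 16281 probes. Per the labels the test RNA was in Cy5, which makes Cy5 over Cy3 the likely direction of the ratio. Scanner, background correction and normalization are not given in the sources used here. The sign was turned where Cy3 held treated RNA. Exact zeros were taken as not measured, and 13415 probes had values on all 6 arrays. Names came from the platform annotation, with 13694 of 13738 single-gene probes found by Entrez ID in RefSeq's table for GRCm38.p6. Probes of 1 gene were averaged, giving 11364 features. Both arrays of a set were read as 1 replicate, which is an assumption.

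Set means were tested against 0 with limma 3.58.1 in R 4.3.3 (lmFit, eBayes, two-sided). The test was also tested on simulated data. From each list up to 4 called and 2 uncalled genes with the largest change were named, and for each of the 4 genes the 3 most alike. The members and lists were chosen with earlier results of these data known. The precision is limited by the number of arrays.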

Additional observations from a re-analysis of the deposited data

Results flagged for a closer look

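The second Csf3 probe, 18418, was singled out because its treatment effect differed between the dye orientations. Its dye effect, which is 0.5 times the difference between the treatment effects with treated RNA in Cy5 and in Cy3, was -2.17 (limma adjusted p = 0.0262 over single probes), and all 4 measured arrays had the same sign as deposited. The first Csf3 probe, 6317, had a dye effect of 0.24 (adjusted p = 0.289). Groups of 3 arrays were too small for a test of single outlying arrays.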

How the results depend on the processing

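Csf3 kept its direction and call under all 18 alternatives, from 1.60 (adjusted p = 0.0298) to 3.64. The lowest value came with exact zeros kept, which averages in the second Csf3 probe. Csf1r kept its direction under all 18 (-0.33 to -0.27) and its call under all but 1, treated RNA in Cy3 alone (-0.29, adjusted p = 0.0503). Csf2 kept its direction under 17 and lost its call with treated RNA in Cy5 alone (0.59), with zeros kept (0.54, adjusted p = 0.131) and without set 3, with 0.45 to 0.73 over the sets left out. Csf1 ran from 0.088 to 0.32 over the sets left out and passed without set 2, and at 0.33 without the set 2 array with treated RNA in Cy5. Csf1 and Csf2 have no value among features with the same sign in both orientations of every set. The causes were not tested.

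Same-numbered arrays did not deviate together: the correlation of their deviations was -0.48, -0.51 and -0.020 in sets 1, 2 and 3. It was 0.53 between set 2 with treated RNA in Cy5 and set 1 with it in Cy3, and 0.45 between set 1 and set 2 the other way. The SDs and p-values of set means rest on the labelled numbers, which these deviations do not bear out. Over the 6 arrays with no replicate block, adjusted p was 2.28e-06 for Csf3, 0.0233 for Csf2, 0.212 for Csf1 and 0.00274 for Csf1r, the same calls as for set means. A random replicate block also kept the 4 calls, as did a fixed replicate block (Csf2 at 0.54, adjusted p = 0.0407), with 904 features higher and 848 lower in place of 1586 and 1708. The random block had a consensus correlation of -0.51 and gave the 4 genes lower SEs than no block (Csf2 0.11 against 0.14). Passes with it, as for Socs2, Cebpb and Nfatc3, thus came from a more lenient setting than no block. Treated RNA in Cy5 alone gave 931 higher and 894 lower, treated RNA in Cy3 alone 1079 lower, and an adjusted p below 0.01 gave 1063 lower.

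Of 51 other genes named, 25 kept direction and call under all alternatives run. Signs turned for Flt3l (-0.037), Jun (-0.18) and Ccnd1 (0.076) with treated RNA in Cy5 alone, for Stat5b (0.015), Cdk4 (0.040) and Il3 (0.16) with it in Cy3 alone, and for Il3 without set 1 (0.0066) or set 3 (0.015), against -0.045 without set 2. None of these was called there. Over 16 alternatives the JAK and STAT list had 8 to 13 rises and 0 to 1 falls, the lineage factors 4 to 7 and 1 to 2, and the inducers and decay factors 5 to 7 and 0 to 3.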
